A study of Mus musculus with 10 samples.

Results

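Alpl encodes tissue-nonspecific alkaline phosphatase, and its transcript was measured as unique molecular identifier (UMI) counts in single endothelial cells (ECs) sorted from mouse femur and tibia. It is 1 gene of the 26504 in the count tables and was chosen by its measured levels across these endothelial types and groups, so its levels are given as a description with no test. In the mouse genome build GRCm38 (GENCODE M21), Alpl lies on the minus strand of chromosome 4 between positions 137741733 and 137796384, with 8 annotated transcripts, and 0 other genes have an exon that overlaps 1 of its exons. All mice were C57BL/6 and carried the Cdh5-mTnG reporter, which marks cells in which the promoter of the endothelial cadherin gene Cdh5 is active, and cells were depleted of blood lineages and sorted for GFP and tdTomato. There were 10 libraries in 5 groups with 2 in each, namely juvenile (3 weeks, male and female), adult (12 weeks, female), aged (75 weeks, female), and 12-week-old females given either parathyroid hormone (PTH) or alendronate. By the study's methods PTH was injected daily and alendronate every other day, and the sequencing was done once on pooled mice for each group. Both libraries of a group are therefore not known to be separate experiments, so p-values measure only the spread between these libraries, which may be technical, and age and sex cannot be told apart between juvenile and adult.

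Tissue-nonspecific alkaline phosphatase is an enzyme tethered to the outside of the plasma membrane by a glycosylphosphatidylinositol (GPI) anchor. It cleaves inorganic pyrophosphate, an inhibitor of mineralization, and it dephosphorylates pyridoxal phosphate and extracellular nucleotides. It is best known in bone as a marker of osteoblasts, which lay down the mineralized matrix, and its activity has long been used in histology to stain the endothelium of small arteries and capillaries. An endothelial signal in sorted bone cells must therefore be read beside the transcripts of osteoblasts, such as Col1a1 (collagen type I) and Bglap (osteocalcin).

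Cells were placed in 4 types by their marker UMIs. Sinusoidal cells of the marrow (bmECs) carried at least 2 UMIs of the scavenger receptor Stab2, metaphyseal or type H cells (mpECs) of Ramp3 and Aplnr, arterial cells (aECs) of the connexin gene Gja4, and remodelling or type R cells (rECs) of Timp4 and Aqp7. Cells with 2 or more UMIs of another set were not given a type, except that Ramp3 and Aplnr did not count against type R. Of 46283 cells that passed the filter on quality, 44661 (96.5%) had endothelial transcripts and no UMI of the leukocyte gene Ptprc. The gates held 14687 sinusoidal, 7792 metaphyseal, 4401 arterial and 1911 type R cells. Markers that the gates did not use mostly went with the labels. Several, such as Bmx and C1qtnf9, are markers that the paper named from these same data, so their calls are no independent check of the gates. All 8 tested arterial markers outside the gate were called higher in arterial cells, each type being set against the mean over the remaining types, beside 5.31% of all genes, as were all 5 tested type R markers in type R cells, beside 5.28% (edgeR's quasi-likelihood test, with a call at adjusted p under 0.05 where the log2 fold change exceeds 1 in size). Some markers were shared, as Rbp7 of the type R list was called higher in arterial cells too, and by more (log2 fold change 2.30 against 1.57), and arterial Hey1 (2.48) and metaphyseal Lamb1 (1.25) were called higher in type R cells.

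The libraries held between 10653583 and 28419323 UMIs, with medians of 3075 to 5064 UMIs per cell, the highest in the aged libraries. Gene symbols that begin with U had UMIs in the aged libraries and in no other, where they made up 1.52% and 1.54% of the total, and they were left out. Median mitochondrial shares were also the highest in the aged libraries (2.31% and 2.42%). Age cannot be told apart from such differences between aged and adult libraries. The aged libraries stood apart also in the test between groups in arterial cells, in which 24.3% of all genes were called higher and 24.3% lower than in adult. Calls between groups, unlike those between types, were made at an adjusted p under 0.05 with no limit on the fold change. Of 46391 distinct barcodes 1021 occurred in more than 1 library, and 107 of the 2856 cells with an Alpl UMI that passed the filter carried such a barcode.

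Alpl was concentrated in arterial and type R endothelium. Of the 5103 Alpl UMIs in the data, 2485 (48.7%) lay in arterial cells and 665 (13.0%) in type R cells, although both types together made up 13.6% of the cells that passed the filter. Sinusoidal cells, which were the most numerous, held 103 UMIs (2.02%), and metaphyseal cells held 118 (2.31%). The rest lay in cells without a set of type markers (1151 UMIs), in cells with several sets (477), in cells outside the endothelial gate (79) and in cells that failed the filter (25). Cells without a set had a low median depth of 2082 UMIs, and 852 of their Alpl UMIs fell in cells that a clustering without Alpl placed in the arterial cluster, beside 207 in the type R cluster.

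Levels are given as CPM, the counts in every 1000000 UMIs summed over the cells of a type in a library, scaled by the total and a factor for composition. In arterial cells the level averaged 118 ± 59.2 CPM (SD, n = 10 libraries), with a lowest value of 19.0, a median of 128.5 and a highest value of 200.6. In type R cells it averaged 105.1 ± 48.3 CPM, from 28.9 through a median of 123.7 to 164.7. Arterial and type R cells therefore overlapped over most of their range.

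In metaphyseal cells the mean was 3.92 ± 2.41 CPM, with values from 1.02 to 9.70. In sinusoidal cells it was 2.28 ± 2.64 CPM, with values from 0 to 9.09. The ranges of these lower neighbours overlapped, but within a library the metaphyseal value was the higher one in 9 of 10 libraries, all but PTH replicate 1. Cells with osteoblast RNA set which library was the exception. Without cells with a Col1a1 or Bglap UMI, PTH replicate 1 joined the others (3.48 CPM in metaphyseal against 1.495 CPM in sinusoidal cells, plain totals), and juvenile replicate 2 became the exception (0 against 0.671 CPM). The metaphyseal value of juvenile replicate 2 rested on 1 cell with 7 Alpl UMIs. Every arterial and type R library lay above every sinusoidal and metaphyseal library, a separation that 0.511% of 10962 genes showed in that direction. When the gates asked for 1 UMI in place of 2 it did not hold, since both juvenile type R libraries then held 0 Alpl UMIs.

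**Figure D1:**
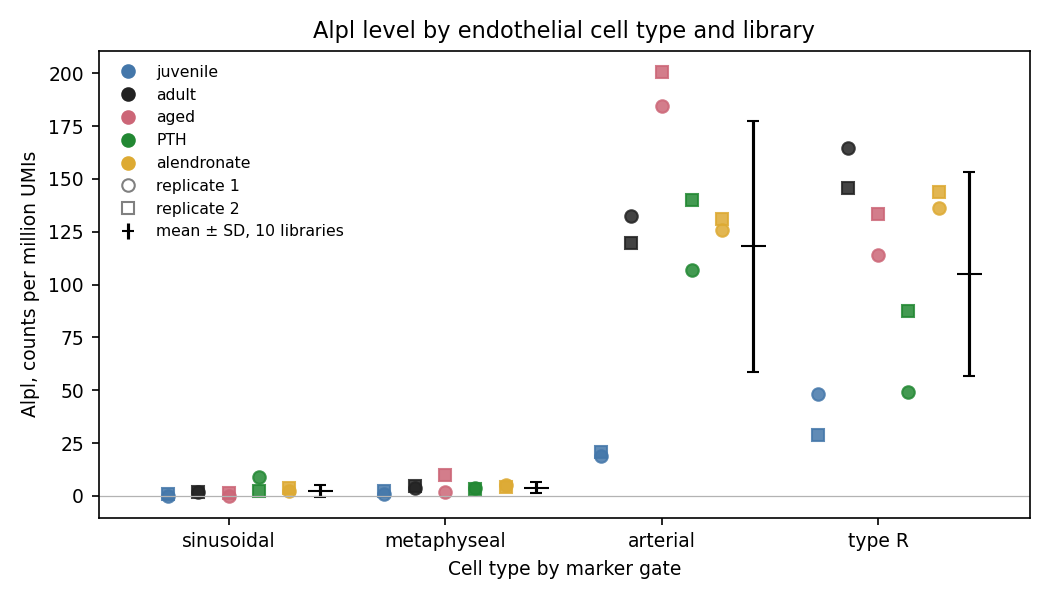
Alpl level (counts per 1000000 UMIs, linear axis) by endothelial type, 1 point per library, coloured by group, with circles for replicate 1, squares for replicate 2 and black bars for mean ± SD over 10 libraries. The lowest arterial value (19.0) lies above the highest sinusoidal (9.09) and metaphyseal (9.70) values.

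The share of cells with an Alpl UMI followed the same order. After each cell was thinned to 1000 UMIs, 12.9% of arterial cells (95% Clopper-Pearson interval 11.9 to 13.9) and 11.7% of type R cells (10.3 to 13.3) had one, at median depths before thinning of 3466 and 2373 UMIs. Without thinning the shares were 29.8% and 20.9%. The shares were 0.426% (0.291 to 0.601) in metaphyseal and 0.118% (0.0687 to 0.189) in sinusoidal cells. Of 104 cells with Ptprc and no endothelial UMI, 1 had an Alpl UMI (0.962%, 0.0243 to 5.24, median depth 5767 UMIs), an interval that holds both of these low shares. Before thinning there were 105 such cells, 48 and 47 of them in the aged libraries, whereas the low shares pool all libraries. Some clusters of blood cells carried Alpl, with 20 UMIs in 114 neutrophils (15.2 CPM by plain totals) and 26 UMIs in 121 cells of a cycling cluster with the B-cell precursor genes Igll1 and Vpreb1 (22.5 CPM), so no cell type here gave a level of background, and whether the low shares are expression was not tested. Thinning left out 83 arterial, 104 type R, 279 metaphyseal and 273 sinusoidal cells, and the intervals cover counting error only.

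Most positive arterial cells held few copies. Of 4401 arterial cells 728 had 1 Alpl UMI, 293 had 2, 156 had 3 and 136 had 4 or more, with a highest count of 16. The highest count among type R cells was 8.

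The clustering, in which Alpl and the genes of its pathway took no part, gave the same picture. The arterial cluster of 6883 cells held 3709 UMIs, or 73.0% of those in cells that passed the filter, at 141 CPM by plain totals. The type R cluster of 2844 cells held 924 UMIs (18.2%) at 138.6 CPM. Clusters named sinusoidal and metaphyseal stood at 1.25 and 2.16 CPM, and a cluster of 842 proliferating cells at 0.993 CPM. In clusters led by genes of other cell types, Alpl reached 62.2 CPM in a cluster of 207 cells led by Bglap, Igfbp6, Dcn and Col1a1, and 82.9 CPM in a cluster of 54 cells with the mural genes Rgs5 and Acta2, although 51 of these 54 cells passed the endothelial gate.

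Alpl also varied with the number of marker UMIs in a cell, though not in steady steps. Among ECs with fewer than 2 UMIs of Stab2 and none of Timp4 or Aqp7, the level by plain totals was 12.6 CPM in 12145 cells without Gja4 and 54.3 CPM in 2354 cells with 1 Gja4 UMI. It was 85.9 CPM with 2, 103.8 CPM with 3 and 101.1 CPM with 4 or more. In cells without Gja4 it was 74.7 CPM with 1 UMI of Timp4 or Aqp7, 105.0 CPM with 2, 154.4 CPM with 3 and 98.7 CPM with 4 or more. Gja4 and the type R genes were part of the gates, so these values describe how Alpl is spread over them and support nothing further.

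Cells with both sets had high levels. The 124 cells with at least 2 UMIs of Gja4 and of Timp4 and Aqp7, but not of Stab2, held 181 Alpl UMIs, or 292.4 CPM. By contrast, 6210 cells with both the sinusoidal and the metaphyseal set stood at 1.64 CPM. Whether cells with an arterial and a type R set are single cells or doublets was not tested.

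**Figure D2:**
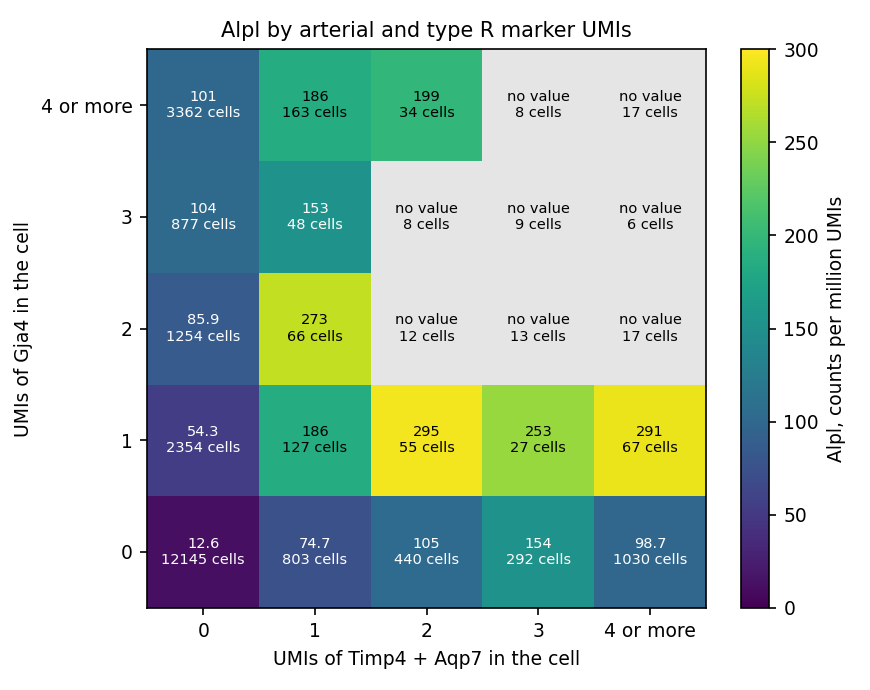
Alpl level (counts per 1000000 UMIs, colour) in ECs with fewer than 2 Stab2 UMIs, by UMIs of Gja4 (vertical) and of Timp4 and Aqp7 together (horizontal), pooled over 10 libraries, with the level and number of cells in each square and no value under 20 cells. Levels run from 12.6 with neither set to 295.0 with 1 Gja4 UMI and 2 type R UMIs.

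Within arterial cells Alpl varied with other markers. These comparisons pool cells of all libraries, use plain totals, and were counted in the libraries with at least 20 cells on each side. Cells with a UMI of Bmx, a tyrosine kinase gene of arterial endothelium, had 204.7 CPM of Alpl against 104.9 CPM in cells without, and were higher in 10 of 10 libraries. Cells with Vegfc, a growth factor for lymphatic and other vessels, had 167.1 CPM against 90.3 CPM, also in 10 of 10 libraries. Cells with Fbln5, a component of elastic fibres, had 149.4 CPM against 31.5 CPM and were higher in 8 of 8 libraries, and those with Sema3g, a semaphorin gene, had 153.9 against 85.6 CPM and were higher in 9 of 9.

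Other genes ran the opposite way, and the markers of a type did not all go together. Arterial cells with the laminin gene Lamb1, a metaphyseal marker, had 36.7 CPM against 160.3 CPM and were higher in 0 of 10 libraries, whereas those with Kcne3, a potassium channel subunit gene of the same marker list, had 275.1 CPM against 123.6 CPM and were higher in 8 of 8. Cells with Col4a1, a collagen of the basement membrane, had 116.9 CPM against 248.9 CPM and were higher in 0 of 8. Cells with Rbp7, a retinol-binding protein gene, had 109.3 CPM against 184.6 CPM and were higher in 1 of 10, while those with another type R marker, C1qtnf9, had 201.3 CPM against 132.5 CPM and were higher in 7 of 8. Cells with Efnb2, the arterial ephrin gene, had 132.4 CPM against 168.0 CPM and were higher in 2 of 10. Arterial markers thus did not all go with Alpl, and the genes were singled out after their values had been seen.

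Rbp7 went the other way among type R cells. Type R cells with Rbp7 had 195.4 CPM of Alpl against 86.2 CPM, and were higher in 7 of 8 libraries. Cells with the transcription factor gene Sox17 had 156.1 CPM against 82.4 CPM, in 7 of 7 libraries, and those with Hey1, a target of Notch, had 287.4 CPM against 84.5 CPM, in 6 of 6. Cells with Fmo2, a type R marker, had 70.6 CPM against 170.8 CPM and were higher in 0 of 7. Efnb2, too, went with more Alpl in type R cells (190.0 against 100.3 CPM, higher in 6 of 6 libraries), the reverse of its direction in arterial cells, and the difference between both types was not tested.

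Osteoblast transcripts were few where Alpl was high. In arterial cells 2485 Alpl UMIs stood beside 37 UMIs of Col1a1 and 30 of Bglap, or 67.2 Alpl UMIs for each Col1a1 UMI. Beside 665 Alpl UMIs in type R cells there were 8 UMIs of Col1a1 and 4 of Bglap. In the cluster led by Bglap and Col1a1 the proportions were reversed, with 68 Alpl, 5499 Col1a1 and 6568 Bglap UMIs, or 0.0124 Alpl UMIs for each Col1a1 UMI. That cluster was singled out after its leading genes had been seen, and 124 of its 207 cells passed the endothelial gate. Cells with several sets in PTH replicate 2 held 1853 Col1a1 and 5852 Bglap UMIs, so these proportions may rest largely on 1 library. The 23 cells with at least 10 Col1a1 UMIs held 26 Alpl beside 5251 Col1a1 UMIs, and 13 of them passed the endothelial gate. Their Alpl level was 163.8 CPM by plain totals, against 141.5 CPM in arterial cells. Among these 23 cells, 5 had no endothelial UMI, and they held 0 Alpl beside 397 Col1a1 and 0 Bglap UMIs.

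Without the cells that held any Col1a1 or Bglap UMI, the level was 141.9 CPM in 4341 arterial cells, against 141.5 CPM in all 4401, and 124.4 CPM in 1900 type R cells, against 124.3 CPM in all 1911 (plain totals). The summed level of the 10 osteoblast genes was 4.20 to 24.6 CPM over arterial and 0 to 21.4 CPM over type R libraries, with Sp7 at 0 in type R cells. It was higher in sinusoidal cells, from 4.83 to 869.0 CPM, where Alpl was lowest.

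The highest sinusoidal Alpl value moved with osteoblast RNA. In PTH replicate 1, 490 sinusoidal cells held 17 Alpl UMIs beside 991 Col1a1 and 94 Bglap UMIs. Without the 6 of those cells with a Col1a1 or Bglap UMI, 3 Alpl UMIs were left, and the level went from 8.33 to 1.495 CPM (plain totals).

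**Figure D3:**
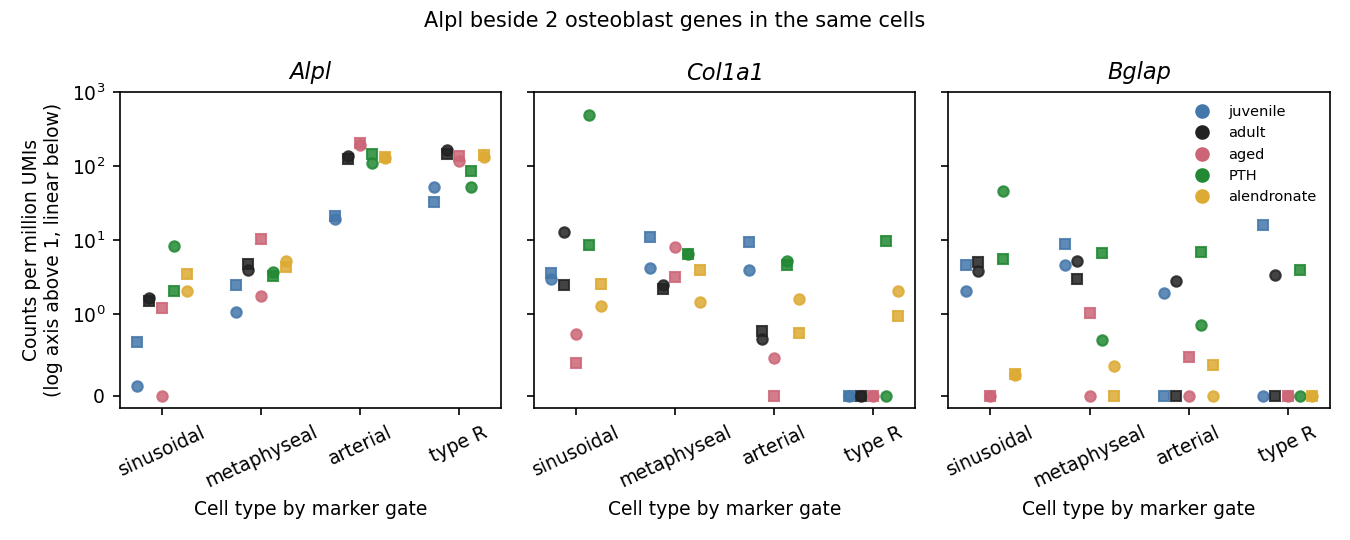
Levels of Alpl, Col1a1 and Bglap (counts per 1000000 UMIs by plain totals, log axis above 1 and linear below) in the 4 endothelial types, 1 point per library, coloured by group, with circles for replicate 1 and squares for replicate 2. Alpl reaches over 100 in most arterial and type R libraries while both osteoblast genes stay low there, and the highest Col1a1 point (485.5, sinusoidal cells of PTH replicate 1) coincides with the highest sinusoidal Alpl.

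Mural transcripts were higher in the types with high Alpl. The 6 mural genes summed to 7.71 to 680.7 CPM over arterial libraries and 8.53 to 623.8 CPM over type R libraries, against at most 19.5 CPM in sinusoidal and 15.0 CPM in metaphyseal cells, and 0 of the 6 genes were at 0 in arterial cells. The 4178 arterial cells without a UMI of any of them had 140.3 CPM of Alpl, beside 159.5 CPM in the 223 cells with one. In type R cells the values were 125.4 CPM in 1779 cells without and 112.9 CPM in 132 cells with one. The arterial libraries with the most and the least mural RNA were both juvenile (replicate 2 with 680.7 and replicate 1 with 7.71 CPM). Their Alpl levels were 20.6 and 19.0 CPM, from 11 and 10 UMIs. In each of both libraries only 4 arterial cells held a mural UMI, and whether mural RNA adds to arterial Alpl was not tested.

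The widest gap in arterial Alpl lay between juvenile and the other groups. In juvenile arterial cells the level was 19.0 CPM in replicate 1 and 20.6 CPM in replicate 2, and in adult cells it was 132.6 and 119.5 CPM. The juvenile mean of 19.8 CPM was 0.157 of the adult mean of 126.1 CPM, and both juvenile libraries lay below both adult libraries, as did those of 25.6% of all genes. The juvenile values rest on 10 and 11 Alpl UMIs in 138 and 147 cells, with 95% exact Poisson intervals of 9.24 to 35.5 CPM and 10.4 to 37.2 CPM by plain totals. The adult values rest on 197 and 156 UMIs in 399 and 379 cells, with intervals of 118.1 to 157.0 CPM and 104.9 to 144.5 CPM. These intervals cover counting error only and are no test between groups.

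Aged arterial cells had the highest levels. They reached 184.3 CPM in replicate 1 and 200.6 CPM in replicate 2, 1.53 times the adult mean, from 408 and 435 UMIs. Both aged libraries lay above both adult ones, as did those of 40.0% of all genes in this comparison, beside 34.8% with the opposite order, so that a separation of this kind is common among genes here. After thinning, 16.5% and 16.9% of aged arterial cells had an Alpl UMI, beside 12.0% and 12.6% of adult and 2.17% and 2.74% of juvenile cells. The intervals of the juvenile shares were 0.451 to 6.22 and 0.751 to 6.87.

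With either drug the arterial level stayed within the spread between libraries. With PTH it was 106.8 and 140.0 CPM, 0.979 of the adult mean, and with alendronate it was 125.7 and 131.2 CPM, 1.02 of the adult mean. In both cases the values overlapped those of adult cells, although 21.7% of all genes had both alendronate libraries below both adult ones and 24.9% above.

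**Figure D4:**
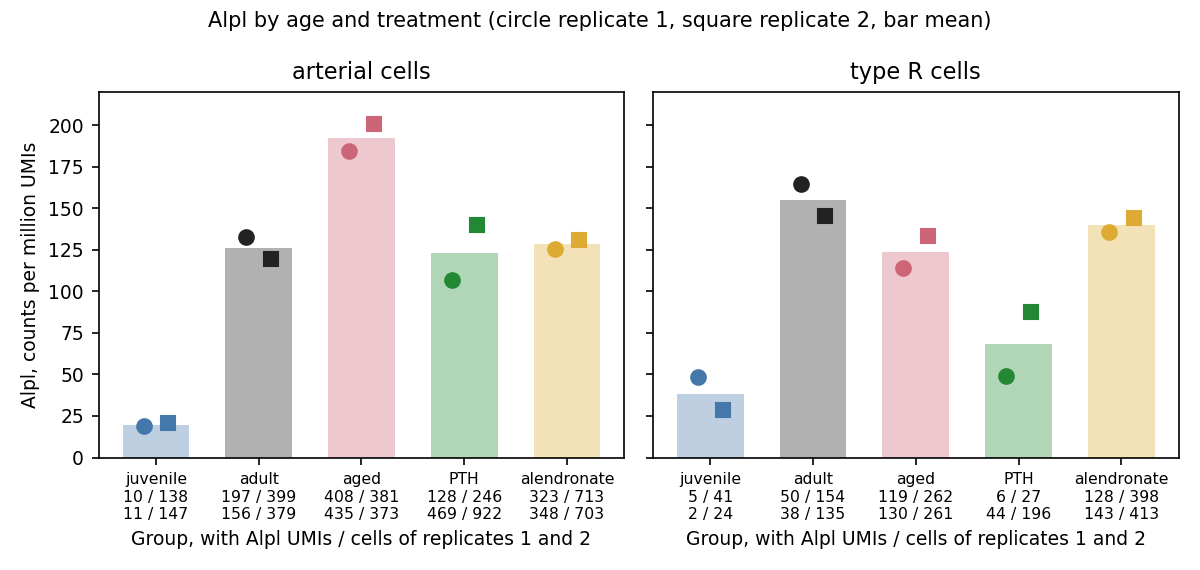
Alpl level (counts per 1000000 UMIs) in arterial and type R cells by group, with bars for the mean of 2 libraries, a circle for replicate 1 and a square for replicate 2, and the Alpl UMIs and cells of each library under the axis. In arterial cells the levels run from 19.0 in juvenile to 200.6 in aged bone, whereas in type R cells the adult libraries are the highest (164.7 and 145.5).

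The low juvenile and high aged levels could be set beside the make-up of the arterial cells. Arterial cells with a Bmx UMI, chosen after that split had been seen, made up 23.9% and 29.9% of juvenile, 28.8% and 28.5% of adult and 37.5% and 38.9% of aged arterial cells. The share was as high with PTH (39.0% and 35.4%), where the arterial level of Alpl overlapped that of adult, and it was 27.9% and 32.3% with alendronate. These shares were not thinned. Median depths of arterial cells were 5151 and 5342 UMIs in aged, 3989 and 3067 in PTH and 3165 and 2902 in adult libraries. Among cells with Bmx, Alpl was 26.1 and 25.8 CPM in juvenile (from 4 and 5 UMIs), 178.9 and 188.4 CPM in adult and 305.4 and 360.8 CPM in aged libraries. With PTH it was 154.3 and 185.2 CPM, and with alendronate 155.9 and 166.7 CPM. In arterial cells without Bmx it was 16.4 and 17.9 CPM in juvenile, 115.7 and 94.2 CPM in adult and 117.9 and 112.9 CPM in aged libraries. There it was 77.3 and 117.5 CPM with PTH and 113.7 and 111.9 CPM with alendronate. The juvenile levels were below the adult ones on both sides of the split, whereas aged and adult cells without Bmx overlapped, and the difference between both sides was not tested.

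The order of groups in type R cells was another one. Adult cells had the highest levels, with 164.7 and 145.5 CPM, followed by alendronate with 136.0 and 144.0 CPM and aged with 113.8 and 133.6 CPM. All 4 of these treated and aged libraries lay below both adult ones, which the libraries of 20.3% of all genes did for alendronate and those of 36.0% for aged, while those of 24.5% and 36.3% lay above. The fold of the adult mean was 0.903 for alendronate and 0.798 for aged. The adult values rest on 50 and 38 UMIs, with exact Poisson intervals of 122.7 to 217.9 and 101.7 to 197.2 CPM by plain totals. Both intervals hold the alendronate values and that of aged replicate 2 (134.2 CPM). After thinning to 1000 UMIs, 11.8% and 13.8% of aged type R cells had an Alpl UMI, beside 12.9% and 13.3% of adult cells. At 2000 UMIs the aged shares were the higher ones (22.4% and 21.3% against 20.3% and 16.7%). By clusters, the alendronate level was not lower, with a log2 difference from adult of 0.0245.

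PTH and juvenile libraries were lower still but rest on few counts. With PTH the type R level was 49.2 CPM from 6 UMIs in 27 cells and 87.3 CPM from 44 UMIs in 196 cells, 0.440 of the adult mean, and 21.8% of all genes had both PTH libraries below both adult ones and 19.2% above. In juvenile type R cells it was 48.2 CPM from 5 UMIs in 41 cells and 28.9 CPM from 2 UMIs in 24 cells, 0.248 of the adult mean, beside 32.5% of all genes below and 15.1% above. This fold depends on the gate, as the log2 difference from adult was -1.98 here and -1.37 with gates at 3 UMIs, and with gates at 1 UMI both juvenile libraries held 0 Alpl UMIs. The highest juvenile value (48.2 CPM) and the lowest PTH value (49.2 CPM) were close, at these counts of 5 and 6 UMIs.

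Sinusoidal and metaphyseal levels were low in every group. In sinusoidal cells they were 0.134 and 0.721 CPM in juvenile, 1.79 and 1.61 CPM in adult, 0 and 1.18 CPM in aged, 9.09 and 2.22 CPM in PTH and 2.29 and 3.78 CPM in alendronate libraries. The value of 0 in aged replicate 1 came from 0 UMIs in 395 cells, where 3 counts of the total correspond to 1.13 CPM and the 95% exact Poisson interval reaches 1.39 CPM. In metaphyseal cells they were 1.02 and 2.45 CPM in juvenile, 3.74 and 4.62 CPM in adult, 1.59 and 9.70 CPM in aged, 3.59 and 3.16 CPM in PTH and 5.12 and 4.23 CPM in alendronate libraries. All 7 Alpl UMIs of metaphyseal cells in juvenile replicate 2 lay in 1 of 653 cells (0.153%), which held a Col1a1 or Bglap UMI. The values of both types rest on 0 to 26 UMIs per library.

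The order of both types within a library differed between groups. Type R cells had more Alpl than arterial cells in all 6 juvenile, adult and alendronate libraries, with log2 differences between -1.30 and -0.11 (arterial minus type R, pseudocount 1 CPM). In these 6 libraries and in PTH replicate 1 the order is uncertain, since the exact Poisson interval of the type R value by plain totals holds the arterial value. The intervals were widest in juvenile cells, at 16.8 to 120.5 CPM from 5 UMIs and 3.90 to 116.2 CPM from 2. The juvenile order turned when the gates asked for 1 UMI, where juvenile type R cells held 0 Alpl UMIs, and in replicate 2 without cells with a mural UMI (17.1 CPM in type R against 21.7 CPM in arterial cells). Arterial cells had more in all 4 aged and PTH libraries, with differences between 0.58 and 1.101. Fewer positive cells and fewer transcripts per cell were not separated here beyond the shares given above.

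The level over the whole endothelium takes in the share of arterial and type R cells as well as the level within them. By plain totals it was 1.82 and 1.88 CPM in juvenile, 20.6 and 17.2 CPM in adult, and 60.9 and 67.0 CPM in aged libraries. With PTH it was 20.4 and 30.4 CPM and with alendronate 34.3 and 36.0 CPM. Both alendronate libraries lay above both adult ones here, although their arterial levels overlapped, and the share of all genes with this order was not counted. Alendronate libraries held 713 and 703 arterial and 398 and 413 type R cells, beside 399 and 379 arterial and 154 and 135 type R cells in adult libraries.

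The genes with the most similar pattern over the 40 sums of types and libraries were Atp2a3 (Pearson's r = 0.945), which encodes a calcium pump of the endoplasmic reticulum, the transcription factor gene Prdm16 (0.944), the stathmin gene Stmn2 (0.932), the phosphatase gene Ptprr (0.932) and Epb4.1l4a (0.930). They were followed by Fhl1 (0.929), Rftn1 (0.926), Lmo7 (0.923), Ptplad2 (0.921) and Acvrl1 (0.919), which encodes the endothelial receptor ALK1, out of 6669 genes compared. The sums of a library share its depth, and the likeness rests mostly on the contrast between types. Atp2a3 had 74.2 CPM in arterial and 45.3 CPM in type R cells, against 2.28 CPM in sinusoidal cells. Within the 10 arterial sums the correlation with Alpl ranged among these genes from -0.057 for Rftn1 to 0.970 for Ptplad2.

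The other genes of alkaline phosphatase biology are given by their counts, with no test of the list. Of 44 symbols listed for pyrophosphate and phosphate, nucleotides and adenosine, vitamin B6, zinc loading, GPI anchors and the other alkaline phosphatases, 26 had enough counts for the test between types. In arterial cells 2 of 26 were called higher and 2 lower than in the mean of the other types, beside 5.31% and 5.41% of all genes, and the median log2 fold change was 0.04 against -0.02 over all genes. In type R cells 0 were higher and 3 lower, beside 5.28% and 7.87% of all genes, with a median of -0.15 against -0.05. At an unadjusted p under 0.05 and no limit on size, edgeR gave 5 higher and 9 lower in arterial cells (25.7% and 26.7% of all genes) and 3 and 7 in type R cells (21.5% and 26.6%). It gave 11 and 2 in metaphyseal (25.3% and 20.9%) and 9 and 10 in sinusoidal cells (37.8% and 32.3%), and DESeq2 called 0 higher and 3 lower in type R cells. Metaphyseal cells had 2 higher and 1 lower, beside 4.23% and 2.12% of all genes, and sinusoidal cells 2 higher and 3 lower, beside 8.72% and 8.06%. The intestinal and germ-cell type alkaline phosphatases Alpi, Akp3 and Alppl2, and the transporter gene Abcc6, had no row and were not analysed here. Ankh is another symbol of the gene with the row Ank, so that this gene is listed under both.

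Mgp was the member with the strongest arterial contrast. It encodes matrix Gla protein, a secreted inhibitor of vascular calcification, and its arterial level ran from 653.3 CPM in juvenile replicate 2 through all other libraries to 2000 CPM in alendronate replicate 2. The mean was 1308 ± 387.4 CPM (SD, n = 10) and the log2 fold change 4.20 ± 0.25 (SE), with an adjusted p of 2.219e-17 in edgeR. In type R cells the level was 0 to 183.8 CPM in 9 libraries and 1083 CPM in PTH replicate 1, which has 27 cells, and Mgp was called lower there (log2 fold change -1.31 ± 0.41, adjusted p = 0.009244 in edgeR). With 1 library left out the type R value ran from -2.27 to -1.01, and the adjusted p reached 0.049 in edgeR without aged replicate 1. Without PTH replicate 1 the call in type R cells was kept, whereas the lower call in sinusoidal cells (-1.18 ± 0.30) was lost. Mgp was also called lower in metaphyseal cells (-1.71 ± 0.31), and the other side of each lower call takes in the arterial cells. Its median was 42.7 CPM in type R cells, beside 72.7 CPM in sinusoidal and 56.5 CPM in metaphyseal cells. High Alpl thus stood beside high Mgp in arterial cells only, and type R cells shared their low Mgp with the types low in Alpl.

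Of the 10 listed genes of extracellular nucleotides and adenosine 5 were tested, with 1 called higher and 2 lower in arterial and 0 higher and 2 lower in type R cells, beside the 5.31% and 5.41% of all genes in arterial and 5.28% and 7.87% in type R cells. Entpd1, which encodes the ectonucleotidase CD39, had 223.6 ± 54.7 CPM in arterial and 58.0 ± 14.1 CPM in sinusoidal cells, with a log2 fold change of 1.24 ± 0.07 in arterial cells (adjusted p = 9.974e-18 in edgeR). Entpd2, a related enzyme with a mean of 13.9 CPM over all sums, was called higher in sinusoidal cells, where it ran from 34.9 to 56.2 CPM, and lower in arterial and type R cells. Slc29a1, the nucleoside transporter ENT1, was called higher in sinusoidal (455.6 ± 22.8 CPM) and metaphyseal cells (466.2 ± 141.5 CPM). It was lower in type R cells, with 96.1 ± 32.4 CPM and a log2 fold change of -1.84 ± 0.12 (adjusted p = 3.383e-16 in edgeR). Ada, adenosine deaminase, was higher in metaphyseal and lower in arterial cells, and the adenosine receptor gene Adora2a was called in no type.

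Genes that prepare the enzyme were not called in any type. None of the 8 tested genes of GPI anchor attachment, 3 zinc transporters and 2 vitamin B6 genes passed both thresholds in any type. Of all genes 2.12% to 8.72% were called per type and direction, and whether these genes were called less often than all genes was not tested. Some differed below the fold limit in edgeR, as did Pgap2 (0.42, adjusted p = 1.262e-09) and Pdxk (0.92, adjusted p = 6.704e-07) in sinusoidal cells. At the pyrophosphate end, Enpp3, a pyrophosphate-forming ectoenzyme, was called lower in sinusoidal cells, while Enpp1, which forms most extracellular pyrophosphate, had too few counts to be tested, as had the mineralization genes Phospho1 and Smpd3. The pyrophosphate exporter Ank was tested and not called.

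**Figure D5:**
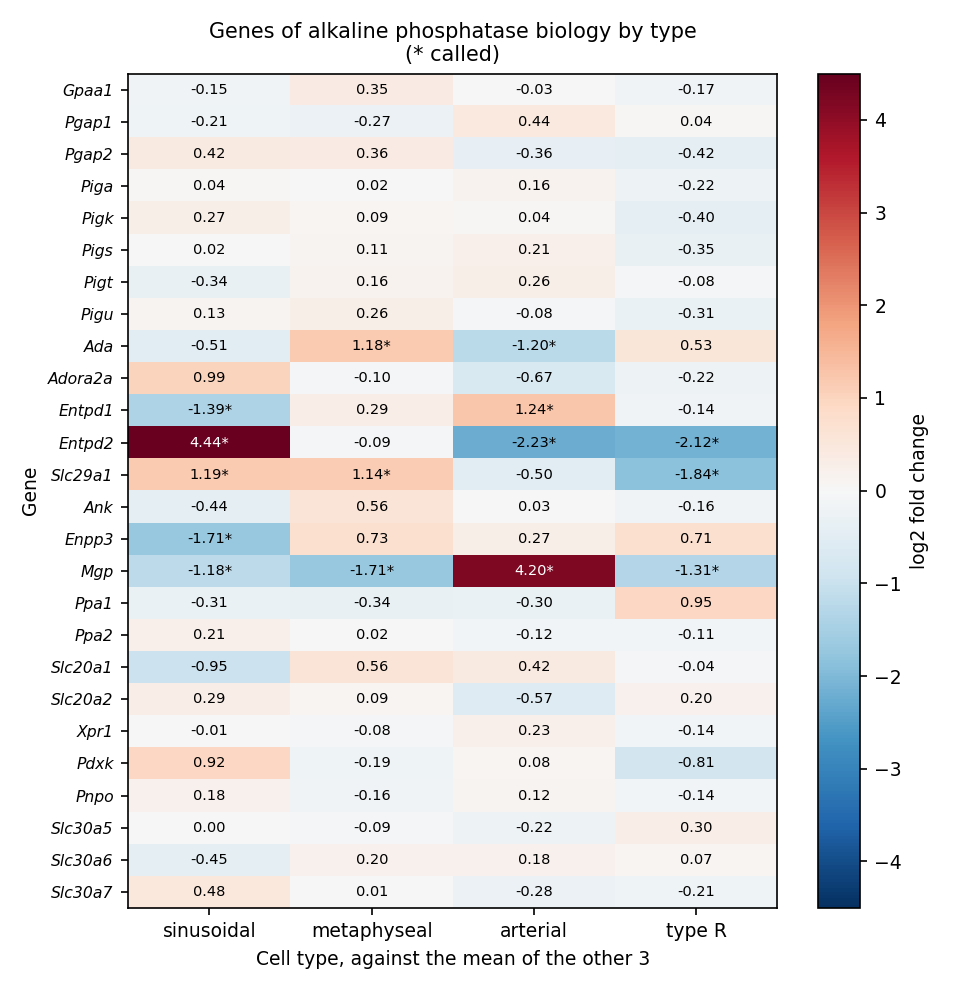
Log2 fold change of the 26 tested genes of alkaline phosphatase biology in each endothelial type against the mean of the other 3 (colour, with the value in each square), from edgeR on 40 sums, with stars at calls (adjusted p under 0.05 and over 1 on the log2 scale). Mgp and Entpd1 carry the stars of higher level in arterial cells, while the 3 stars in type R cells (Entpd2, Slc29a1 and Mgp) all mark lower levels.

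Between groups the listed genes moved mainly in aged arterial cells. Of 25 tested genes 3 were called higher and 5 lower in aged than in adult arterial cells, beside 24.3% of all genes in each direction, so the list was near the background. The calls became 2 higher and 3 lower of 27 tested without adult replicate 1, beside 17.3% and 17.2% of all genes, and 2 and 2 with DESeq2, beside 17.2% and 16.5%. By clusters they were 7 and 10 of 26, beside 29.0% and 29.7%. Slc29a1 fell from 210.8 and 228.8 CPM in adult to 125.3 and 125.9 CPM in aged libraries (log2 fold change -0.80 ± 0.12, adjusted p = 4.919e-06 in edgeR). Xpr1, a phosphate exporter, rose from 42.7 and 29.4 CPM to 72.3 and 63.9 CPM (0.91 ± 0.18, adjusted p = 0.0001734 in edgeR). Both genes kept their call when any 1 library was left out.

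The GPI genes Pigt, Pigs and Gpaa1, which encode subunits of the transamidase that attaches the anchor, were called lower in aged arterial cells, while the other tested subunits were not called (Pigk -0.30, adjusted p = 0.118, and Pigu -0.37, adjusted p = 0.205 in edgeR). In all, 3 of 8 tested GPI genes were called lower and 1 higher, beside the 24.3% of all genes in each direction. Pigt fell from 126.7 and 98.5 CPM to 62.0 and 60.2 CPM (-0.89 ± 0.13, adjusted p = 8.24e-06 in edgeR). The calls of Pigs and Gpaa1 were lost without adult replicate 1 and without 1 of the aged libraries, whereas that of Pigt was kept. Pgap1, another GPI gene, was called higher at under 10 CPM, and the call was lost without either adult library and without aged replicate 2. The pyrophosphatase gene Ppa2 was called lower, which was lost without aged replicate 1, and Entpd1 was called higher (0.48 ± 0.11).

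With alendronate 1 gene was called, Mgp, which rose from 1055 and 1277 CPM to 1851 and 2050 CPM in the fit of arterial sums alone (0.74 ± 0.14, adjusted p = 0.002601 in edgeR), beside 1.01% of all genes called higher and 0.874% lower. This call was lost without adult replicate 1 and was not made by DESeq2. No listed gene was called in juvenile or PTH arterial cells by edgeR or DESeq2, beside 3.13% higher and 4.12% lower of all genes for juvenile and 1.48% and 1.86% for PTH. At an unadjusted p under 0.05 edgeR gave 1 higher and 2 lower for juvenile, beside 9.87% and 10.5% of all genes, and 3 higher and 2 lower for PTH, beside 7.06% and 6.95%. For juvenile, 3 genes were called by clusters, and 1 was called without the filter on low counts and when adult replicate 1, juvenile replicate 1 or PTH replicate 2 was left out.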

How the data were processed

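Single-cell 3′ RNA libraries of sorted bone ECs were prepared on the 10x Chromium platform. The deposited values are UMI counts per gene and cell, which the authors made with UMI-tools 1.1.2, STAR 2.7.10a and featureCounts 2.0.3 on mm10 (submitters' processing notes), with no normalization. The annotation release and strand setting are not given in the sources used here. Groups and replicate numbers came from the sample labels.

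Cells with 500 to 6000 genes and under 25% mitochondrial UMIs were kept. No doublet caller was used in the main analysis, and Scrublet was an alternative. Counts were summed per type and library (at least 20 cells) and tested with edgeR 4.0.16 (filterByExpr, TMM factors, quasi-likelihood test, Benjamini-Hochberg adjustment) in R 4.3.3. Between types the library was a block, and between groups, in arterial cells only, there was none. CPM by type and group use totals multiplied by TMM factors, and plain totals where stated. DESeq2 1.42.0, other gates and filters, and clusters from Seurat 5.3.0 (2000 features, 30 components, resolution 0.5) were alternatives. Per-cell work used Python 3.11.15 with scanpy 1.11.5. On simulated counts for the contrast of arterial cells, 200 of 200 genes changed by a log2 fold of 2 were called and 0 unchanged ones, and for aged against adult 200 of 200 and 16 unchanged ones. Only genes with a mean of at least 20 CPM were changed, and smaller folds, as in most calls between groups, were not simulated. Neither was a contrast with as many changes as aged against adult, where 24.3% of all genes were called in each direction.

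Alpl, the gates and the gene lists were chosen with earlier results of these data known. Named pathway genes are, for each contrast, up to 5 called genes with the largest fold and a mean of at least 20 CPM, and members named to account for the rest. Genes most like Alpl are the 10 with the highest correlation of log2(CPM + 1) and a mean of at least 20 CPM.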

Additional observations from a re-analysis of the deposited data

Results flagged for a closer look

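Differences from adult are on the log2(CPM + 1) scale, and every difference between types given here was flagged because both libraries of a group lay above both adult libraries in one type and below them in another. None of these differences between types was tested, and the share of genes with such a pattern was not counted.

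In aged bone Alpl was higher than in adult by 0.606 in arterial cells and differed by -0.324 in type R cells. The type R difference was not seen in the thinned shares of cells with an Alpl UMI (11.8% and 13.8% in aged against 12.9% and 13.3% in adult). With PTH Alpl differed by 1.3 in sinusoidal cells, by -0.243 in metaphyseal cells and by -1.17 in type R cells. The sinusoidal value of PTH replicate 1 moved with osteoblast RNA, as its level by plain totals was 8.33 CPM in all cells and 1.495 CPM without the cells that held Col1a1 or Bglap. Without such cells the sinusoidal PTH values (1.495 and 1.745 CPM) overlapped the adult ones (1.669 and 1.376 CPM), so the flagged sinusoidal order was lost. With alendronate Alpl differed by 0.577 in sinusoidal cells and by -0.147 in type R cells, where the exact Poisson intervals of both adult values held the alendronate ones.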

How the results depend on the processing

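Differences in Alpl from adult are on the log2(CPM + 1) scale, numbers of genes are pathway genes called, and 401 of 432 values under another setting stayed within the spread between libraries or within 1.5 times the number called. For levels and shares that spread is the SD over all libraries, which takes in the differences between groups. Many settings only leave out 1 library, so this count is a loose measure. With gates at 1 UMI, Alpl in metaphyseal cells was 6.69 CPM, arterial minus type R 1.56, juvenile minus adult -1.94 in arterial and -7.16 in type R cells, and PTH minus adult in type R cells -1.68, with 8 genes called for sinusoidal cells and 0 for alendronate. The juvenile type R libraries held 0 Alpl UMIs there, so -7.16 depends on the pseudocount and is no bound. With gates at 3 UMIs, juvenile minus adult in type R cells was -1.37, and 1 gene was called for PTH. By clusters the arterial differences were -2.31 for juvenile, 0.93 for aged and 0.313 for alendronate, the type R difference for juvenile was -2.49 and that for alendronate 0.0245, and 3, 17, 1 and 3 genes were called for juvenile, aged, PTH and alendronate. A pseudocount of 10 CPM gave -2.19 for juvenile arterial cells. Without the filter on low counts, 5 genes were called for metaphyseal cells and 1 for juvenile. DESeq2 called 4 for aged and 0 for alendronate. Thinning to 2000 UMIs gave mean shares with an Alpl UMI of 18.6% of arterial, 15.5% of type R, 0.747% of metaphyseal and 0.286% of sinusoidal cells. These are means over libraries (9 for type R) and not pooled shares. At 1000 UMIs such means were 11.3%, 9.58%, 0.4735% and 0.1065% in the same order. Beyond the effect of the settings themselves, the cause was not tested.

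With 1 library left out, the lone library of a group was assumed to vary like the others. PTH minus adult in arterial cells then ran from -0.262 to 0.147, alendronate minus adult from -0.041 to 0.11 in arterial and -0.19 to 0.0064 in type R cells, and the genes called from 0 to 1 for juvenile, 5 to 10 for aged and 0 to 1 for alendronate. Of these, 5 for aged and 0 for alendronate were reached without adult replicate 1, and 1 for juvenile without adult replicate 1, juvenile replicate 1 or PTH replicate 2. In 10 pairs of same-numbered libraries the deviations from the group means had correlations of -0.0789 to 0.0464, so the numbers were not taken to pair the libraries. With the replicate block 0, 10, 0 and 1 genes were called for juvenile, aged, PTH and alendronate, against 0, 8, 0 and 1 without it. The aged arterial difference of 0.607 was 0.514 with the symbols that begin with U kept, an alternative chosen after the data had been seen, and also 0.514 with doublets left out. The juvenile type R values are limited by the number of cells, with 5 and 2 Alpl UMIs in 41 and 24 cells.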
